A study of Rattus norvegicus with 8 samples.

Results

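The genes described here are 7 receptors for neurotrophins and for ligands of the GDNF family: Ntrk2, Ntrk3, Ngfr, Ret, Gfra1, Gfra2 and Gfra3. They were taken by symbol from a fixed list, which was chosen with earlier results of these data known. All 7 were found among 17379 genes. Neurons of dorsal root ganglia, the sensory ganglia beside the spinal cord, came from rat embryos (Rattus norvegicus) of embryonic day 15. They were cultured for 7 days in microfluidic chambers, in which axons grow into a compartment of their own. On the day of plating a lentivirus gave them either a control hairpin (shControl) or a hairpin against Pum2 (shPum2), which encodes an RNA-binding protein. Total RNA was sequenced in 4 groups of 2 libraries each: soma shControl, soma shPum2, axon shControl and axon shPum2. Per the labels, a somatic sample holds cell bodies together with axons. Somatic libraries came from a standard kit and axonal libraries from an ultra-low input kit, so a difference of compartment cannot be told apart from one of kit. All cultures carried a lentivirus, and no culture without one was analysed here. The labels do not say whether the 2 libraries of a group came from separate cultures, so p-values measure the spread between these libraries, which may be technical.

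Neurotrophins signal through receptor tyrosine kinases of the Trk family. Ntrk2 encodes TrkB, the receptor of BDNF, and Ntrk3 encodes TrkC, the receptor of the neurotrophin made from Ntf3. Ngfr encodes the low-affinity receptor that binds every neurotrophin and has no kinase. Ligands of the GDNF family first bind a coreceptor anchored in the membrane, encoded by Gfra1 for GDNF, Gfra2 for neurturin and Gfra3 for artemin, and the pair then engages the kinase Ret. In sensory ganglia TrkB and TrkC mark touch and position-sensing neurons, Gfra3 marks many pain-sensing neurons, and Ret is found in several classes. The receptor proteins act at axon tips, from which they signal back to the cell body.

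Somatic libraries held 16725876 to 25821766 counts and axonal libraries 11641947 to 16131611. Pum2 was at 164 and 160 CPM (counts scaled to the total of a library) in soma shControl and at 38.2 and 36.5 CPM in soma shPum2. Its somatic difference was -2.13 ± 0.07 (log2 ± SE), with an edgeR adjusted p of 0.0247 (quasi-likelihood test, Benjamini-Hochberg over all genes tested). Differences below are log2 values with their SE from the same test. In axons the groups overlapped, at 3.25 and 0.443 CPM with shControl and 1.46 and 7.07 CPM with shPum2. All 11 neuron markers with a transcript in the files had counts in every library, with sums of 31900 to 37490 CPM in somatic and 18730 to 34400 CPM in axonal libraries. In bulk RNA, fewer cells of a type and less RNA per cell cannot be told apart.

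In the somatic compartment the receptors ranged from among the more abundant RNAs (Ngfr, Ret) to rare ones (Ntrk2, Ntrk3). TPM, the authors' measure per transcript length, allows levels to be compared between genes within a library. Ngfr stood at 884 and 835 TPM in soma shControl and at 697 and 845 TPM in soma shPum2, which placed it between 166th and 216th of 14038 to 14263 genes with a count. Ret stood at 383 and 305 TPM and then at 345 and 337 TPM, between 451st and 582nd. These 2 genes together made up most of the receptor RNA per length: Ngfr took 62.3% to 69.8% and Ret 25.4% to 30.8% of the summed TPM of the 7 genes. Gfra3 followed at 53.4 and 43.2 TPM with shControl and 49.99 and 42.6 TPM with shPum2. Gfra1 was at 10.8 and 5.84 TPM and then at 14.2 and 5.96 TPM, and Gfra2 at 3.92 and 4.98 TPM and then at 6.07 and 4.62 TPM. The Trk genes were lowest. Ntrk2 had 2.38 and 2.49 TPM with shControl and 2.997 and 2.60 TPM with shPum2, and Ntrk3 had 1.22 and 0.974 TPM and then 3.72 and 1.19 TPM.

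The order Ngfr, Ret, Gfra3, Gfra1, Gfra2, Ntrk2, Ntrk3 was the same in both somatic groups by mean TPM. In soma shControl no 2 neighbours in this order overlapped between their libraries. In soma shPum2, Gfra1 overlapped with Gfra2, and Ntrk2 overlapped with Ntrk3. Ret exceeded the 3 Gfra coreceptors summed in every somatic library, with 4.91 to 6.34 times their summed TPM. The levels are a description without a test.

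**Figure D1:**
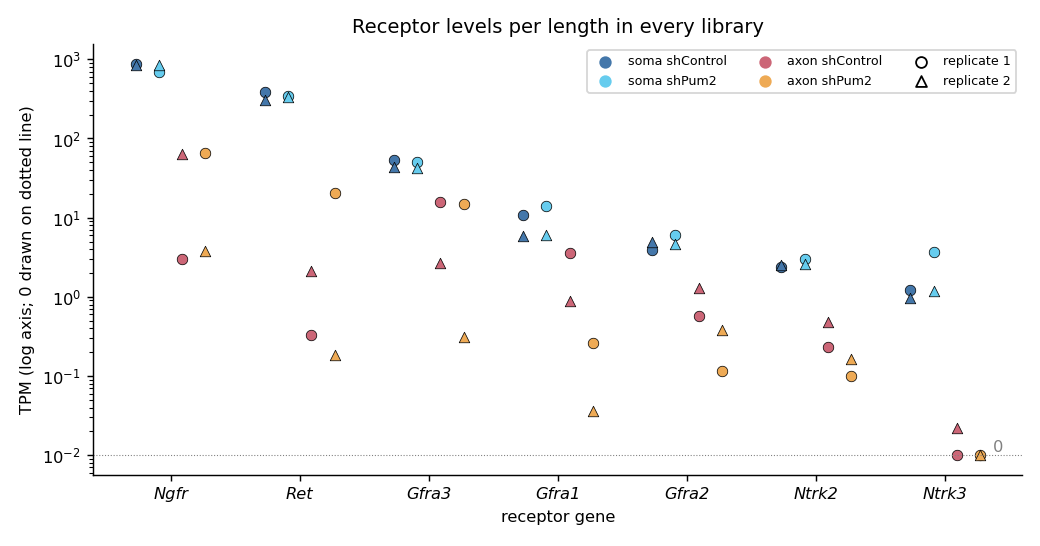
Each point is 1 library; the vertical log axis gives TPM and the horizontal axis the 7 receptor genes, with colours for the 4 groups and shapes for the replicate. Somatic points lie close together for Ngfr (697 to 884 TPM), whereas axonal points of the same gene spread from 3.02 to 66.02 TPM; values of 0 are drawn on the dotted line.

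The somatic comparison asked whether receptor RNA changes in cell bodies when Pum2 is reduced, and none of the 7 receptors passed the threshold of 0.05 on the adjusted p. All 7 passed the filter on low counts. Of all 12346 genes tested, 0.0081% passed, which is Pum2 alone, and 74 genes had an unadjusted p under 0.05, none of them a receptor. That absence depended on the fit, since deviations of same-numbered somatic libraries correlated across genes at 0.786. With the replicate number added as a block, 706 genes had an unadjusted p under 0.05. Ntrk3 was among them, with a log2 difference of 0.97 (SE 0.40), and no receptor passed after adjustment. DESeq2 called 2 genes and limma voom 0, with no receptor in either. Ngfr was at 1631 and 1565 CPM in controls, against 1291 and 1585 CPM with shPum2, and the groups overlapped. Its difference was -0.16 ± 0.17. Ret, at 999 and 810 CPM and then 912 and 899 CPM, differed by -0.01 ± 0.14, and its shPum2 libraries lay between the shControl libraries. Gfra3 was at 60.7 and 49.8 CPM and then 57.0 and 49.1 CPM (log2 difference -0.07, SE 0.13).

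The 4 less abundant receptors had positive log2 differences in the somatic comparison, and none passed. Ntrk2 was at 7.59 and 8.07 CPM in controls, against 10.02 and 8.37 CPM with shPum2, so that both shPum2 libraries lay above both shControl libraries (log2 difference 0.22, SE 0.19). Gfra2 was at 6.10 and 7.90 CPM and then 9.50 and 7.32 CPM (0.25, SE 0.25), and the groups overlapped. Gfra1 was at 22.1 and 12.2 CPM and then 29.2 and 12.4 CPM, and in each group replicate 1 was the higher library (0.26, SE 0.48). Ntrk3 had 31 and 35 counts with shControl and 120 and 48 counts with shPum2, equal to 1.85 and 1.51 CPM and then 5.65 and 1.86 CPM. Its groups did not overlap, but the lower shPum2 library and the higher shControl library were nearly equal. The difference was 1.13 ± 0.59. In the fit without the replicate block, all 7 receptors had an adjusted p of 0.9997 (by edgeR), and unadjusted p-values lay between 0.117 and 0.962. Groups that did not overlap with shPum2 higher were seen for 2 of the 7 receptors and for 11.5% of all genes tested. The median log2 difference was 0.22 over the receptors and 0.01 over all genes.

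**Figure D2:**
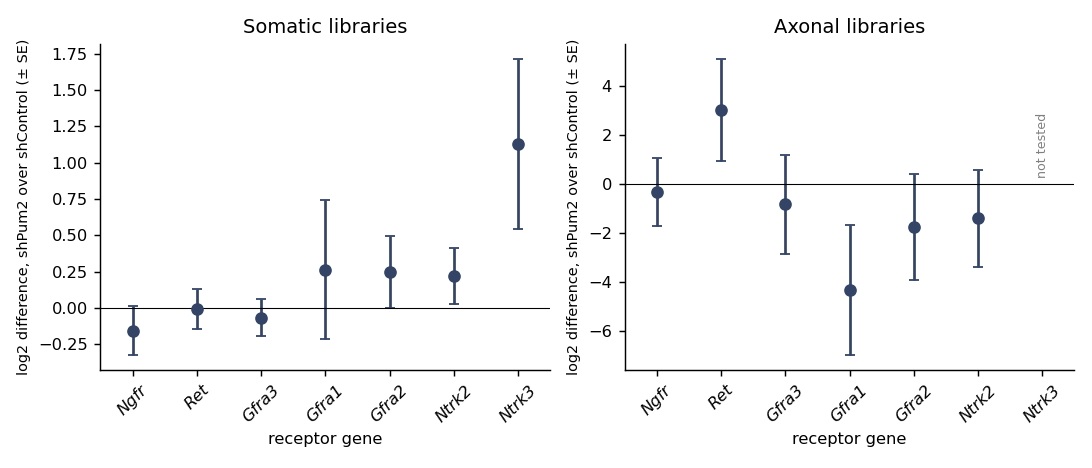
Points give the log2 difference of shPum2 over shControl for each receptor and bars its SE, from edgeR fits of the 4 somatic libraries (left) and the 4 axonal libraries (right), on vertical axes of different scale. SEs lie between 0.13 and 0.59 in somatic and between 1.39 and 2.65 in axonal libraries; Ntrk3 had too few axonal counts to be tested.

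The somatic values of Ntrk3 and Gfra1 moved most without replicate 1 of soma shPum2. Without it the log2 difference of Ntrk3 was 0.18 and that of Gfra1 was -0.43, with adjusted p of 1 for both (by edgeR). Gfra1 was also negative, at -0.10, without replicate 2 of soma shControl. Replicate 1 of soma shPum2 was highest in markers of cells other than neurons. The 12 fibroblast markers, all with counts in every somatic library, summed to 3766 and 2068 CPM in soma shControl and to 9248 and 2068 CPM in soma shPum2. The 12 macrophage and blood markers summed to 106 and 68.7 CPM and then to 239 and 56.0 CPM, and 11 Schwann and satellite glia markers to 67.8 and 43.9 CPM and then to 105 and 56.4 CPM. Ntrk3, Gfra1 and the fibroblast sum all had their highest value in replicate 1 of soma shPum2, and Gfra1 and the fibroblast sum had the next highest in replicate 1 of soma shControl. Most of the fibroblast sum in replicate 1 of soma shPum2 was Col3a1, Col1a1 and Fn1, at 3221, 1999 and 1933 CPM. Thy1 was lowest there, at 143 CPM against 190 to 241 CPM in the other somatic libraries. The other markers of the list were highest there, Pdgfra only slightly, at 27.1 against 20.5 to 26.1 CPM. The part of fibroblasts in these receptor values was not tested. Ngfr, which Schwann cells are also known to make, was at 1291 CPM or more in every somatic library, and was lowest in the library with the highest glial sum. Pmp22 alone was at 48.9 CPM of the 105 CPM of that sum. The part of glia in the Ngfr values was not tested.

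**Figure D3:**
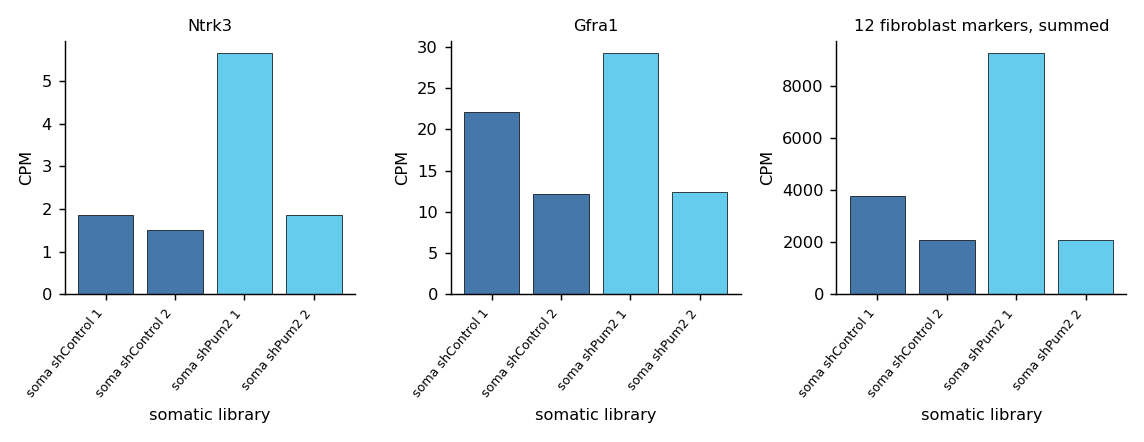
Bars give CPM of Ntrk3, of Gfra1 and of the summed 12 fibroblast markers in each of the 4 somatic libraries, on linear axes from 0. Replicate 1 of soma shPum2 is highest in all 3 panels, at 5.65, 29.2 and 9248 CPM.

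Summed over the 7 genes, receptors took a far smaller share of counts in axonal libraries, at 22.3 to 421 CPM. Somatic libraries had 2314 to 2728 CPM, most of it Ngfr and Ret. The drop was not shared evenly, and Gfra1 with shControl overlapped between compartments. Axonal replicates of a group differed widely. Ngfr was at 13.2 and 258 CPM in axon shControl and at 255 and 17.5 CPM in axon shPum2, so each group held 1 high and 1 low library. Gfra3 was at 41.8 and 6.65 CPM and then 34.8 and 0.868 CPM, again with 1 high library in each group but not the same replicate of shControl as for Ngfr. Ret was at 1.88 and 10.4 CPM in controls, against 128 and 1.12 CPM with shPum2. In shPum2 its higher library was 115 times its lower one. Gfra1 differed from this pattern, with 17.3 and 3.99 CPM in shControl and 1.12 and 0.186 CPM in shPum2, that is 202 and 54 counts and then 13 and 3 counts. Gfra2 had 2.05 and 4.43 CPM and then 0.344 and 1.49 CPM, from 24 and 60 counts and then 4 and 24 counts. Ntrk2 had 1.71 and 3.10 CPM and then 0.773 and 1.12 CPM, from 20 and 42 counts and then 9 and 18 counts. Ntrk3 had a single count, in replicate 2 of axon shControl. The 3 libraries at 0 allow up to 0.257 CPM in replicate 1 of axon shControl and 0.258 and 0.186 CPM in replicates 1 and 2 of axon shPum2 (3 counts of the total, counting error only).

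In the axonal comparison of shPum2 with shControl, 6 of the 7 receptors passed the filter on low counts, Ntrk3 did not, and none of the 6 passed the threshold. Of all 8517 genes tested, 0% passed with edgeR, and 257 had an unadjusted p under 0.05, none of them a receptor. DESeq2 called 346 genes and limma voom 0, with no receptor in either. DESeq2 gave no adjusted p to Gfra2, Ntrk2 and Ntrk3, so it could not call them. Gfra1 had an unadjusted p of 0.0204 and an adjusted p of 0.211 with DESeq2. Gfra1 had the largest log2 difference, -4.31 with an SE of 2.65. Those of Gfra2 and Ntrk2 were -1.75 (SE 2.16) and -1.38 (SE 1.98). Both shPum2 libraries were below both shControl libraries for these 3 genes, a separation in that direction found for 12% of all genes tested. Gfra3 was at -0.82 (SE 2.01) and Ngfr at -0.30 (SE 1.39), with overlapping groups. Ret was at 3.04 with an SE of 2.08, also with overlapping groups. The 6 adjusted p-values were all 0.9998 (by edgeR), and the unadjusted ones lay between 0.142 and 0.833.

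The direction of Ret, Ngfr and Gfra3 turned with single libraries. Without replicate 1 of axon shPum2 the log2 difference of Ret was -2.28 in place of 3.04. Gfra1, Gfra2 and Ntrk2 stayed negative with any 1 library left out, between -5.62 and -2.86, between -3.59 and -0.95 and between -2.02 and -0.91. Ngfr turned to 2.97 without replicate 2 of axon shControl and to 0.53 without replicate 2 of axon shPum2, and Gfra3 to 1.07 without replicate 1 of axon shControl and to 0.10 without replicate 2 of axon shPum2. Non-neuronal markers also differed between these libraries. In axon shControl the markers of macrophages and blood reached 2529 and 2911 CPM in sum, and in axon shPum2 5159 and 281 CPM. Of these sums Lyz2 alone gave 816 and 2190 CPM and then 2061 and 172 CPM. Counts were found for 10 to 12 of the 12 markers, with Itgam at 0 in 3 libraries. Fibroblast markers summed to 471 and 307 CPM and then to 849 and 94.0 CPM, with 11 or 12 of 12 counted. Schwann and satellite glia markers summed to 204 and 120 CPM and then to 155 and 82.1 CPM, with Cdh19 and Gfap at 0 in all 4 axonal libraries. Of 8 endothelial markers, 2 to 5 had counts, and Cdh5 and Kdr were at 0 in all 4. The library with the highest Ret also had the highest macrophage, fibroblast and neuron sums of the axonal libraries (neuron markers 34400 CPM, against 18730 to 25480 CPM in the others). The neuron sum was mostly Nefm, at 23710 CPM there and 10290 to 16340 CPM in the others. Tubb3, Elavl4, Avil and Nefl were also highest there. Prph, Uchl1, Gap43 and Stmn2 were highest in replicate 2 of axon shPum2, and Isl1 and Snap25 in replicate 2 of axon shControl. The part of these cells in the receptor values was not tested.

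The authors' deposited table of the axonal comparison lists no receptor past an adjusted p of 0.05, against 4.03% of the 8858 genes with an adjusted p there. It gives Gfra1 a log2 fold change of -3.81 with an SE of 1.62, an unadjusted p of 0.0189 and an adjusted p of 0.205. Ret has 2.14 (SE 1.57, adjusted p = 0.764) in the authors' deposited table, and Ntrk2 and Ntrk3 have no adjusted p. For the somatic comparison the authors' deposited table, with 0.0134% of 14955 genes past 0.05, gives the receptors log2 fold changes between -0.11 (Ngfr) and 0.10 (Ntrk3), all with an adjusted p of 0.9999.

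Transcripts of Ret were counted separately, since the files list 2, of 3928 and 5478 bases. Reads of the shared part are divided by an estimate, so the shares are estimates too. In somatic libraries the longer transcript, NM_012643, took 48.9%, 49.9%, 51.2% and 50.6% of Ret counts, in the order shControl replicates 1 and 2 and shPum2 replicates 1 and 2. In axon shControl it took 22.7% (95% Clopper-Pearson interval 7.82% to 45.4%) of 22 counts and 5.67% (2.48% to 10.9%) of 141 counts. In axon shPum2 it took 83.3% (81.3% to 85.2%) of 1491 counts in replicate 1 and 33.3% (13.3% to 59.0%) of 18 counts in replicate 2. The axonal library with the highest Ret was thus also the one whose Ret counts came mostly from the longer transcript, with about 1242 of them estimated there. The shorter transcript, NM_001110099, had 17.2 and 133 estimated counts in axon shControl and 249 and 12.3 in axon shPum2.

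Ntrk2 is also listed with 2 transcripts, of 4750 and 6931 bases. The longer one took 43.5% to 55.4% of somatic Ntrk2 counts. In axons its share was 35.0% (15.4% to 59.2%) and 26.2% (13.9% to 42.0%) with shControl and 88.9% (51.8% to 99.7%) and 0% (up to 18.5%) with shPum2, the last 2 from 9 and 18 counts. The shPum2 libraries thus lay at opposite ends. Of the 3 Ntrk3 transcripts, NM_019248 held all 120 counts of replicate 1 of soma shPum2 and 47.9% (33.3% to 62.8%) of the 48 counts of replicate 2.

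**Figure D4:**
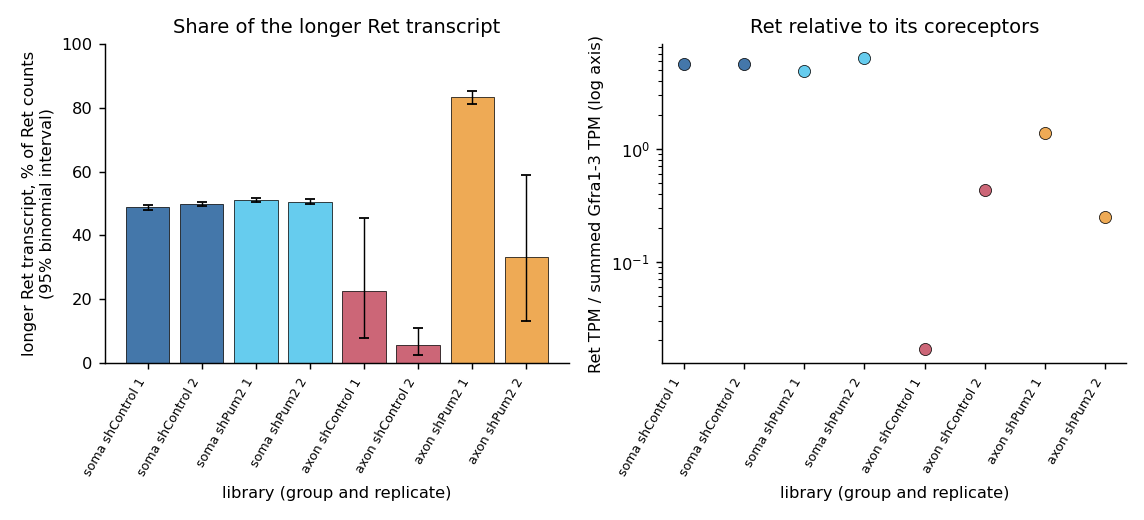
The left panel gives the share of the longer Ret transcript in the Ret counts of each library, with 95% binomial intervals for counting error; the right panel gives Ret TPM over the summed TPM of Gfra1, Gfra2 and Gfra3 on a log axis. Somatic shares lie between 48.9% and 51.2% and the axonal ones between 5.67% and 83.3%; the ratio is 4.91 to 6.34 in somatic and 0.0169 to 1.37 in axonal libraries.

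Axonal libraries were also compared with somatic libraries of the same hairpin. By CPM, 6 of 7 receptors were lower in both axonal shControl libraries than in either somatic one, Gfra1 overlapping, and 7 of 7 were lower with shPum2. Such a separation with axons lower was found for 68.7% and 69.3% of the 12337 genes tested, and the receptors' counts are to be read against these shares. The hairpins differed in Gfra1 alone, and that difference in counts was not tested. Over the summed counts of each group, Ret was 138-fold higher by CPM in soma than in axon with shControl and 16.7-fold with shPum2. The shPum2 ratio was set by replicate 1 of axon shPum2, without which it was 811, and it was 7.07 without replicate 2. Without replicates 1 and 2 of axon shControl in turn, the shControl ratio of Ret was 85.4 and 473. Ngfr was 11.02-fold higher in soma with shControl (6.17 and 121 without axonal replicates 1 and 2) and 12.4-fold with shPum2 (82.8 and 5.69). Gfra1 had ratios of 1.61 with shControl (4.10 and 0.945 without axonal replicates 1 and 2) and 34.7 with shPum2 (108 and 17.9, and 21.6 without replicate 1 of soma shPum2). For Gfra2 they were 2.14 (1.61 and 3.48) and 8.24 (5.58 and 24.2), and for Gfra3 2.37 (8.17 and 1.30) and 3.49 (60.7 and 1.51). The ratios of these receptors thus depended on single axonal libraries. Those of Ntrk2 were 3.20 (2.54 and 4.60) and 9.37 (8.17 and 11.8). Ntrk3 had a ratio of 41.7 with shControl, from 1 axonal count (95% counting interval 7.23 to 1672). It was 22.4 without replicate 1 of axon shControl and at least 6.44 without replicate 2. With shPum2 it was at least 33.0-fold lower in axons, with 0 axonal counts set to 3 for the group as a floor. This bound was 17.2 without replicate 1 of soma shPum2 and 52.3 without replicate 2, and 19.2 and 13.9 without replicates 1 and 2 of axon shPum2. The summed markers of macrophages and blood moved with the same comparison. They went from 106 and 68.7 CPM in soma shControl to 2529 and 2911 CPM in axon shControl. With shPum2 they went from 239 and 56.0 CPM to 5159 and 281 CPM. The markers did not all move alike. In replicate 2 of axon shControl Lyz2 alone was at 2190 CPM. Csf1r, Adgre1 and C1qa were at 0.296, 1.11 and 0.370 CPM there. These and Itgam lay below both soma shControl libraries, and the other markers above them. Of 11 markers tested, 6 were called higher in axons with shControl and 3 with shPum2 under TMM (3 and 1 with total counts). The part of these cells in the receptor values was not tested.

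With TMM scaling, edgeR's default, the log2 difference of axon over soma was -5.64 (SE 1.84) for Ret, -3.76 (SE 1.20) for Ntrk3 and -2.01 (SE 1.38) for Ngfr in shControl libraries. Adjusted p-values were 0.0626, 0.0682 and 0.318 (by edgeR). The other 4 lay closer to 0 under this scaling, with Gfra1 at 0.93 (SE 1.21), Gfra2 at 0.46 (SE 1.15), Gfra3 at 0.42 (SE 1.45) and Ntrk2 at -0.13 (SE 0.94). None of the 7 passed, against 27.9% of 12337 genes. Ret passed without either axonal shPum2 library (edgeR adjusted p = 0.0106 and 0.0108) and with DESeq2 (adjusted p = 0.00218). Without replicate 1 of axon shControl Gfra1 turned to -0.48, Gfra3 to -1.43 and Ntrk2 to 0.28, and without replicate 2 Gfra2 turned to -0.17. In shPum2 libraries Ntrk3 was called lower in axons (adjusted p = 0.0215 by edgeR), the 1 receptor that passed, against 24.7% of genes in either direction and 16.2% lower. With 0 counts in axon shPum2, Ntrk3 entered the fit through its somatic counts, so a call could only be lower. Its call ended without any one of 5 libraries: both soma shControl, both soma shPum2 and replicate 2 of axon shPum2, with adjusted p between 0.0566 and 0.113 (by edgeR). It also ended with the 4 shPum2 libraries fitted alone (edgeR adjusted p = 0.0599) and with limma voom (adjusted p = 0.132). Gfra1 was at -3.65 (SE 1.34), Ret at -2.61 (SE 1.60), Ngfr at -2.16 (SE 1.39), Ntrk2 at -1.66 (SE 0.97), Gfra2 at -1.44 (SE 1.18) and Gfra3 at -0.35 (SE 1.45). Without replicate 1 of axon shPum2, Ret was at -7.63 and passed (adjusted p = 0.0191 by edgeR), and without replicate 2 Gfra3 turned to 0.54. Gfra1 passed without either axonal shControl library (edgeR adjusted p = 0.0379 and 0.0399), with DESeq2 (0.00474) and with limma voom (0.0409).

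Scaling matters for these directions. Over all genes the median log2 difference of axon over soma with shControl was -0.75 with TMM and -2.35 with total counts, and with shPum2 -0.64 and -2.03. Scaled by total counts, Gfra1, Gfra2 and Gfra3 with shControl turned from positive to -0.69, -1.11 and -1.19. Ntrk2 with shControl moved from -0.13 to -1.70 with total counts and to 0.19 with the DESeq2 size factors. Ret, Ntrk3 and Ngfr were negative in both hairpins under all 3 scalings. With total counts Ret and Ntrk3 passed with shControl, at adjusted p of 0.0466 and 0.0353, and Ntrk3, Gfra1 and Ntrk2 with shPum2 (by edgeR). For Ntrk3, with 1 axonal count with shControl and 0 with shPum2, a call could only be lower. In all, 1161 genes were called higher and 2284 lower in axons with TMM and shControl, against 609 and 3606 with total counts. With shPum2 these numbers were 1042 and 2004, against 538 and 3015. The receptors' median was -0.13 with shControl and -2.16 with shPum2 under TMM, and -1.70 and -3.40 with total counts.

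**Figure D5:**
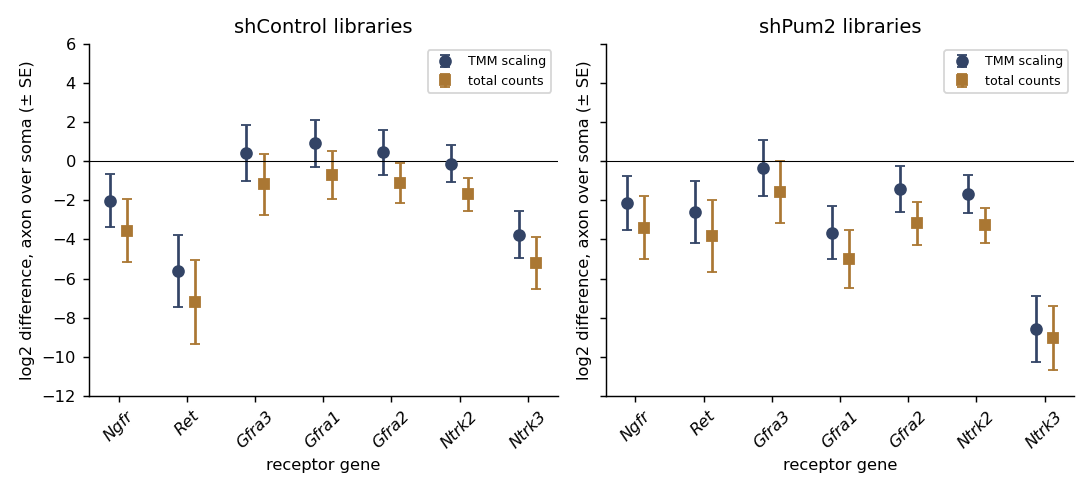
Points give the log2 difference of axonal over somatic libraries of each receptor with its SE, for shControl (left) and shPum2 (right), with TMM scaling (circles) and scaling by total counts (squares). Ret and Ntrk3 lie below 0 in both panels under both scalings, and the 3 Gfra genes change sign with the scaling in the shControl panel; the value of Ntrk3 with shPum2 is fitted from 0 axonal counts and is no measure of size.

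Relative to one another, the receptors were mixed differently in axons. Ret had between 0.0169 and 1.37 times the summed TPM of the 3 Gfra coreceptors in axonal libraries, below the range of 4.91 to 6.34 in somatic libraries. In replicate 1 of axon shControl Gfra3 made up 66.9% of the summed receptor TPM and Ngfr 13.0%, whereas Ngfr made up 64.9% to 89.6% in the other 3 axonal libraries. By mean TPM the order in axon shControl was Ngfr, Gfra3, Gfra1, Ret, Gfra2, Ntrk2, Ntrk3, and in axon shPum2 it was Ngfr, Ret, Gfra3, Gfra2, Gfra1, Ntrk2, Ntrk3. Neighbours in these orders overlapped except Ntrk2 and Ntrk3 in both groups and Gfra2 and Ntrk2 with shControl.

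The interaction, the axonal minus the somatic effect of the Pum2 hairpin, was fitted over all 8 libraries with 1 spread per gene, and none of the 7 receptors passed, against 0% of 12337 genes. At an unadjusted p under 0.05 there were 964 genes in the table and 1 receptor, Gfra1. Its interaction was -4.58 with an SE of 1.79 (unadjusted p = 0.0391, adjusted p = 0.572 by edgeR), and over its alternatives the adjusted p lay between 0.0304 and 1. DESeq2 called 627 genes, Gfra1 among them with the lowest of those values. Ret was at 3.03 with an SE of 2.18, and at -2.06 without replicate 1 of axon shPum2. The value of Ntrk3 rests on 1 axonal count and is not given. The other 4 lay between -1.90 (Gfra2) and -0.15 (Ngfr). This comparison and the axonal one share the 4 axonal libraries, so the 2 values of Gfra1 are not separate evidence.

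Ligands of the 2 families were low in these cultures apart from Bdnf and Gdf15, a distant member of the same superfamily whose receptor also works with Ret. Bdnf was at 71.9 and 79.7 CPM in soma shControl and at 63.0 and 77.3 CPM in soma shPum2. Gdf15 was at 46.7 and 19.0 CPM and then 94.0 and 25.1 CPM, highest in the library with the highest fibroblast sum. Ntf3 lay between 3.99 and 6.10 CPM in somatic libraries and Pspn, the gene of persephin, between 1.55 and 2.42 CPM. Nrtn of neurturin (0.465 to 1.27 CPM), Artn of artemin (0.155 to 0.800 CPM) and Gdnf (0.0431 to 0.376 CPM) were lower, and Ntf4 had 3 somatic counts with shControl and 9 with shPum2. None of the 7 tested ligands passed in the somatic comparison, nor did either of the 2 tested in axons, Bdnf and Gdf15. In axons Nrtn was counted in 1 library, at 7.02 CPM in replicate 1 of shControl, and Artn reached 7.13 CPM in replicate 1 of shPum2. Pspn was lower in axons with both hairpins, with 1 and 0 axonal counts per group, so a call could only be lower. With the DESeq2 size factors Pspn missed the threshold with shControl.

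None of the tested genes of the other pathway lists passed in either knockdown comparison: 13 other receptors and coreceptors in soma and 4 in axon, 22 and 17 adaptors that bind Trk or Ret, 14 and 13 partners and proteases of Ngfr, 14 and 14 genes of receptor endocytosis and transport, and 8 and 5 feedback inhibitors. Median somatic differences lay between -0.06 and 0.01. Among the abundant members, Ncam1, an adhesion molecule that also binds GDNF, had a somatic log2 difference of -0.06 (SE 0.08). The adaptor Grb2 was likewise at -0.06 (SE 0.11), Arhgdia and Bex3, which bind the protein of Ngfr, stood at 1154 and 1223 CPM and at 213 and 236 CPM in soma shControl, and the dynein light chain gene Dynlt1 was at 0.01 (SE 0.12).

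Between compartments, 6 of 13 other receptors and coreceptors were lower in axons with shControl and 7 with shPum2, and none was higher, against 18.5% and 16.2% of all genes lower and 9.41% and 8.45% higher. Of the 13, 4 passed the filter on low counts in the axonal libraries alone. The others entered the fit through their somatic counts, which favours calls of lower, so no excess is read from these numbers. Sort1, which encodes sortilin, the partner of Ngfr in binding proneurotrophins, was at 166 and 155 CPM in soma shControl and at 0.513 and 0.222 CPM in axon shControl. With shPum2 it was at 167 and 167 CPM in soma and at 14.6 and 4.15 CPM in axons, and it was called lower there too. Lrig2, Gfra4 and Sorcs2 were also lower with both hairpins, Lingo1 and Rtn4r with shControl, and Sorl1 and Sdc3 with shPum2, Sdc3 not with the DESeq2 size factors. Lingo1, a partner of Ngfr, was at 139 and 123 CPM in soma and at 0.428 and 0.370 CPM in axons with shControl. Gfra4, the coreceptor of persephin, had 139 and 136 somatic counts per hairpin and 0 in all 4 axonal libraries, so a call could only be lower. Under total counts 9 and 10 of the 13 were lower.

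Among 22 adaptors, 6 were lower in axons with shControl (Crk, Dok6, Dok4, Gab2, Dok5 and Crkl), against 18.5% of all genes. With shPum2 6 were lower, among them Dok5, Dok6, Sh2b2, Sos1 and Gab2, and 1 was higher, against 16.2% and 8.45% of all genes. The gene that was higher, Dok2, a docking protein known from blood cells, was at 37.1 and 4.59 CPM in axon shPum2 and at 1.46 and 1.16 CPM in soma shPum2; the part of blood cells in it was not tested. Dok6 had 0 counts in all 4 axonal libraries, as had Dok5 and Sh2b2 in both of axon shPum2. A call of these genes there could only be lower. Dok4, which binds Ret, was at 986 and 919 CPM in soma shControl and at 52.8 and 119 CPM in axon shControl. Crk was at 95.4 and 88.9 CPM in soma and at 0.0856 and 0.517 CPM in axons with shControl, but at 21.5 and 19.5 CPM in axons with shPum2. With the DESeq2 size factors Dok4 and Crkl missed the threshold, and with total counts Dok2 did.

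Other lists held genes higher in axons. Dynlt1 was at 1544 and 1611 CPM in axon shControl against 276 and 301 CPM in soma, and at 1528 and 2408 CPM against 277 and 308 CPM with shPum2, and it was called with all 3 scalings. The heavy chain gene of the same motor, Dync1h1, was called lower with shControl, at 6.33 and 61.8 CPM against 1678 and 1841 CPM. Psenen, a small subunit of the gamma-secretase that cleaves the protein of Ngfr, was higher in axons with both hairpins under TMM, at 95.4 and 255 CPM against 42.4 and 51.4 CPM with shControl, and missed the threshold with total counts. Aph1a, another subunit of that enzyme, was lower with shControl, at 1.03 and 0.443 CPM against 87.8 and 85.0 CPM. Maged1, which binds the protein of Ngfr, was lower with both hairpins, though not with the DESeq2 size factors. In all, 1 of 14 Ngfr partners was higher and 2 lower with shControl, and 3 and 2 with shPum2. Of 14 transport genes 1 was higher and 1 lower, and then 2 higher and 0 lower. Of 8 feedback inhibitors 1 was higher and 2 lower, and then 1 and 4. Over all genes 9.41% were higher and 18.5% lower with shControl, and 8.45% and 16.2% with shPum2, and nothing particular to these lists is read from their counts. Spred2, an inhibitor of Ras signalling, and the ubiquitin ligase gene Nedd4 were lower with both hairpins, Nedd4 not with the DESeq2 size factors and shPum2. Spry4 and Dusp4 were lower with shPum2. Spry2 was called higher with both hairpins under TMM, with overlapping CPM in shControl, and with neither under total counts. Under total counts none of the Ngfr partners, adaptors or feedback inhibitors was called higher, and of the transport genes Dynlt1 alone.

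Genes most like each receptor over the 8 libraries were found by Pearson's r of log2(CPM + 1) among 7615 genes with a mean of at least 10 CPM. The libraries share compartment, kit and depth, so these values are a description. Ret was nearest to Sema4f (r = 0.9996) and Smurf1 (0.9994), and Ppp2ca (0.9985) was among the genes nearest to Ngfr. Ntrk2 was nearest to Myo9b (0.9962) and Patz1 (0.9952), Gfra3 to Rhot2 (0.9942) and Gpaa1 (0.9931), and Gfra2 to Tbcc (0.9925) and Gnl3 (0.9865). Ntrk3 was nearest to Jag1 (0.9835) and Prss23 (0.9806), and Gfra1 to Srgap2 (0.9810) and Ptpn13 (0.9780).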

How the data were processed

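RNA-seq of 8 libraries in 4 groups was analysed. The authors deposited, per library, estimated counts and TPM for 18321 RefSeq transcripts with their lengths, per the file headers. Per the submitters' processing notes, the build was Rnor_6.0 and the tools included kallisto and DESeq2, without versions. The authors' 2 deposited comparison tables give a mean normalised signal, log2 fold changes with SE, a test statistic (a score) and p-values, per the file headers. Estimated counts were summed to 17379 genes by a RefSeq table of GRCr8, used for names alone (94.8% of transcripts matched), and rounded to whole numbers. The unmatched transcripts, with 2.02% to 3.62% of a library's counts, kept their identifiers. TPM entered no test. They gave the order and shares of receptors within a library, which are set side by side between libraries as a description.

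Tests used edgeR 4.0.16 in R 4.3.3 (quasi-likelihood, TMM, filterByExpr, Benjamini-Hochberg over all genes, threshold 0.05), in fits of 4 somatic, 4 axonal or all 8 libraries. The SE is the log2 difference over the square root of F. DESeq2 1.42.0, limma 3.58.1 (voom) and other filters and scalings were alternatives. The fits were tested on simulated counts. All receptors are named. Of other lists, genes that passed and whose groups did not overlap are named, at most 6 per list and comparison, otherwise up to 2 with the highest somatic TPM. Ligands are named whether or not they passed. The members and lists were chosen with earlier results of these data known. Some genes that enter the fits and list counts are not reported here.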

Additional observations from a re-analysis of the deposited data

How the results depend on the processing

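Of 519 receptor log2 differences recomputed under an alternative, 460 kept their direction and side of the threshold, 37 changed sign, 15 passed where they had not and 7 no longer passed. In the somatic comparison Ret turned to 0.0012 with total counts and 0.038 with transcripts not summed. With 1 library left out the range was -0.14 to 0.14 for Ret, -0.43 to 0.74 for Gfra1, -0.19 to 0.068 for Gfra3 and -0.36 to 0.013 for Ngfr. In the axonal comparison Ngfr turned to 0.017 with total counts and to 0.081 with the replicate block. Left-out libraries gave -2.77 to 2.97 for Ngfr, -4.64 to 1.07 for Gfra3 and -2.28 to 4.66 for Ret. Between compartments with shControl, total counts gave -0.69 for Gfra1, -1.11 for Gfra2 and -1.19 for Gfra3. Gfra3 was also at -0.20 with limma voom and -0.28 with the replicate block, and Ntrk2 at 0.18 with DESeq2, 0.19 with its size factors and 0.21 with transcripts not summed. Left-out libraries gave -0.48 to 1.62 for Gfra1, -0.17 to 0.96 for Gfra2, -1.43 to 1.20 for Gfra3 and -0.59 to 0.28 for Ntrk2, and with shPum2 -3.90 to 0.54 for Gfra3. The interaction of Ngfr turned to 0.20 with limma voom, 0.10 with the replicate block and 0.16 with total counts. Left-out libraries gave -2.39 to 3.15 for Ngfr, -4.33 to 1.04 for Gfra3 and -2.06 to 4.68 for Ret. The causes were not tested.

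Somatic calls over all genes were 2 with DESeq2, 0 with limma voom and 0 in 1 fit of all 8 libraries, and 0 to 1 with 1 library left out. Axonal calls, 0 in the main fit, were 6 without the expression filter, 346 with DESeq2 and 0 to 31 with 1 library left out. Interaction calls were 627 with DESeq2, with 1 receptor, and 0 to 713. Compartment calls ranged from 0 to 5539 (shControl) and from 0 to 4862 (shPum2) with 1 library left out. Receptors called with shControl were 2 with total counts, 1 with DESeq2, 1 with transcripts not summed, 1 with the 4 libraries of that hairpin alone and 0 to 1 with 1 library left out. With shPum2 they were 3 with total counts, 2 with DESeq2, 0 with the 4 libraries of that hairpin alone and 0 to 2 with 1 library left out. Ordering the receptors by CPM per transcript length changed none of the 7 places in any group. TPM are themselves counts per transcript length, so the orders could hardly have differed and nothing is read from this.

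Replicate numbers share only a number in the labels. Deviations of same-numbered libraries correlated across genes at 0.786 in soma and 0.095 in axon. With the replicate block 1 gene was called in the somatic, 0 in the axonal and 0 in the interaction comparison, and 2370 and 2199 between compartments. Depth limits the axonal values: the lowest count in an axonal library was 0 for Ntrk3, 3 for Gfra1, 4 for Gfra2, 9 for Ntrk2, 14 for Gfra3, 18 for Ret and 154 for Ngfr. Ratios of soma over axon with single libraries left out were added after seeing the data.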
